A study of Drosophila melanogaster with 21 samples.

Results

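Immediate early genes are transcribed within minutes of a stimulus, before any new protein is needed, and most of them encode transcription factors that pass the signal on to later genes. Transcripts of 7 such genes were followed after mating in the lower reproductive tract of females of the fly Drosophila melanogaster: hry, kay, Jra, sr, Hr38, cbt and puc. The members were every probe set annotated with one of these symbols or an older synonym (hry was formerly h), which gave 8 of the 13966 tested probe sets on the array and 7 of the 10844 genes represented. kay had a pair of probe sets and each other gene had 1.

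In flies, kay encodes Fos and Jra encodes Jun, the partners of the dimeric factor AP-1. AP-1 is activated by the JNK cascade, a stress and wound pathway, and JNK signalling switches on puc, a phosphatase that turns JNK off again, so puc is a feedback gene and not a transcription factor. hry encodes Hairy, a repressor of the basic helix-loop-helix class that recruits the corepressor Groucho, sr encodes Stripe, a zinc finger factor related to vertebrate EGR proteins and known from tendon cells, Hr38 is the fly member of the NR4A nuclear receptors and is used as a marker of neuronal activity, and cbt encodes Cabut, a zinc finger factor related to vertebrate TIEG. In the female tract, mating delivers sperm and seminal fluid proteins, and sperm are then stored for later use.

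The samples were unmated females on 5 arrays and mated females dissected directly after mating ended (0 h, 6 arrays) or later, with 4 arrays for 3 h, 3 for 6 h and 3 for 24 h. All females were 3 days old and kept at 23 C, and each array held RNA pooled from the lower tracts of 12 to 40 females of 1 group, dissected to hold the upper part of the uterus with the accessory glands and the organs that store sperm. The sources used here do not name the strain. No array was taken between 0 h and 3 h, so a peak lying between those times would not be seen. Unmated females were dissected at times spread among the dissections of mated ones. In whole tissue, fewer cells of a type and less RNA per cell cannot be told apart.

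Gaps between the labels' array numbers divide the arrays into 6 sets, here termed processing runs, although no label describes them. Unmated females share no run with the 0 h or the 6 h group. The array medians lay between 42.1 and 57.7 except that of 6 h replicate 3, which at 35.6 was the lowest, and this array and 24 h replicate 3 make up run 6. Relative to unmated females, the median probe set stood at a log2 change of -0.10 (0 h), -0.14 (3 h), -0.21 (6 h) and -0.10 (24 h). Of 6 lower tract markers, Send1, a spermathecal endopeptidase gene, had a signal of 8368 to 23969 in unmated females, 7966 to 12277 at 0 h, 6745 to 14225 at 3 h, 3940 to 8794 at 6 h and 5405 to 7023 at 24 h. Send2, which rose at 3 h and 6 h, is no measure of tissue content at those times, and dsx, a sex determination gene, had 4.0 to 181.2 at 6 h, against 224.9 to 506.2 in unmated females. Of the 6 markers, 5 had a log2 change below 0 at 6 h against unmated females, none of them past the threshold, and their part in the 6 h results was not tested.

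hry was the only one of the 7 genes past the threshold in the fit without run, with low transcript levels at 6 h. Its signal was 334.9, 739.5 and 109.8 on the 6 h arrays, against 1620.8, 1225.3, 1547.8, 1130.6 and 893.2 on the unmated arrays. All 6 h arrays lay below all unmated arrays. hry fell at 6 h by 2.06 on the log2 scale against unmated females (SE 0.49, n = 3 and 5, limma adjusted p = 0.0342), which is 4.17-fold lower.

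Against the earlier times hry was also low at 6 h, in comparisons that reuse the same 6 h arrays. At 3 h its signal was 1808.9, 2073.9, 986.9 and 1395.7, and at 0 h it lay between 1159.2 and 1418.3 with a median of 1263. Every 6 h array was below every 0 h and 3 h array, while the 0 h, 3 h and unmated ranges overlapped. hry fell at 6 h by 2.33 against 3 h (SE 0.51, adjusted p = 0.0480). In run 5, the only run with arrays of both times, the difference was -0.42 (739.5 at 6 h against 986.9 at 3 h). Against 0 h the log2 change was -2.09 (SE 0.47, adjusted p = 0.0762), which did not pass 0.05. At 24 h hry had signals of 1070.3, 637.5 and 247.7, which overlapped both the 6 h and the unmated ranges. The log2 change at 24 h was -1.18 against unmated females (SE 0.49, adjusted p = 0.588) and 0.88 against 6 h (SE 0.55, adjusted p = 0.824). In order of geometric mean hry ran 6 h, 24 h, unmated, 0 h and 3 h, and neighbours in that order overlapped.

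**Figure D1:**
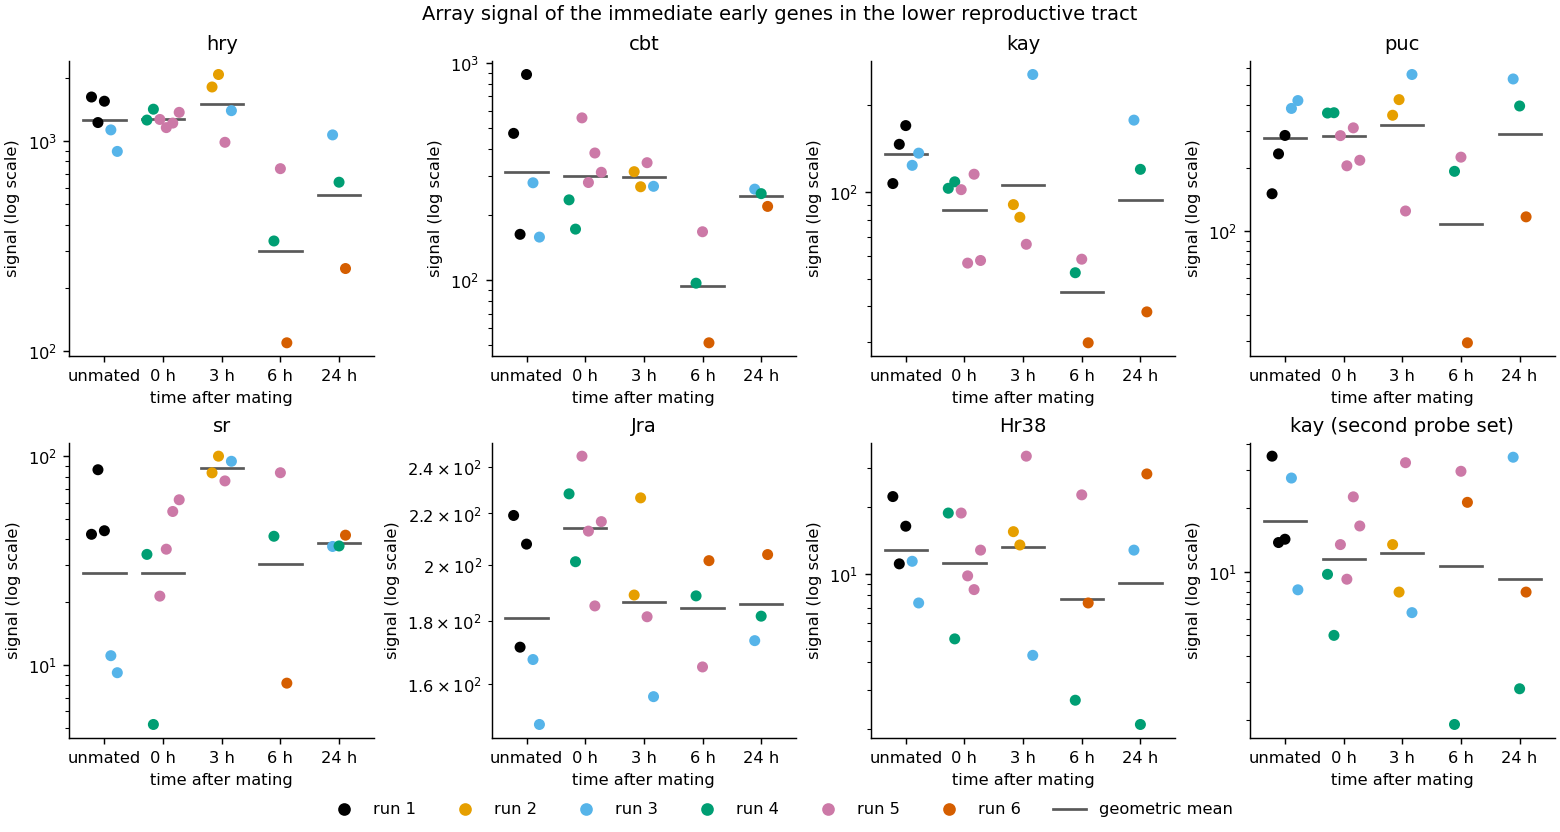
Signal of each array (log axis) for 7 immediate early genes and the second kay probe set, in unmated females and at 0, 3, 6 and 24 h after mating. Points are arrays coloured by processing run, and grey bars are geometric means. hry and cbt are lowest at 6 h, sr is tightly grouped at 3 h, and Jra stays between 148.5 and 244.8 on all 21 arrays.

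Over the whole family, 1 of 8 probe sets passed at 6 h against unmated females and it was hry, which was lower (limma adjusted p = 0.142 with run as a random block and 0.689 as a fixed block). Of all probe sets 1.84% passed in that comparison and 1.17% passed as lower. Without overlap, 2 of the 8 lay lower at 6 h than in unmated females (hry and kay), against 6.28% of all probe sets. In the fit without run the median log2 change of the 8 was -1.04, against -0.21 over all probe sets. There 6 of 8 were below 0, against 60.4% of all. With run as a fixed block, cbt was -1.12, Hr38 -1.04, hry -0.60 and puc -0.15. In that fit Jra was 0.039, the kay probe sets 0.13 and 0.27, and sr 1.84. Against 3 h, in the fit without run, 1 of 8 passed, again hry, while 0.451% of all probe sets passed and 0.251% passed as lower. There 8 of 8 members were below 0, against 50.6% of all probe sets, with a median of -1.38 against -0.01. Among these, Jra was at -0.017 and the dim second kay probe set at -0.20. With run as a fixed block Jra was 0.0024 and that probe set 0.42. The others stayed below 0, with cbt at -1.315, hry -1.02, Hr38 -0.77, sr -0.76, the brighter kay probe set -0.63 and puc -0.18. The ranges of 3 members (hry, kay and cbt) lay wholly below their 3 h ranges, against 4.88% of all.

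In the other comparisons 0 of 8 members passed in limma. At 0 h against unmated females 0% of all probe sets passed, and at unadjusted p under 0.05 there were 0 of 8 members and 7.43% of all probe sets (1037). At 24 h against unmated females 0% of all passed, with 1 of 8 members (hry) and 7.85% of all probe sets (1097) at unadjusted p under 0.05. At 3 h against unmated females 0.115% of all passed, and 1 of 8 members (sr) was under 0.05 unadjusted, against 7.64% of all. At 3 h against 0 h 0.0644% of all passed, and 1 of 8 members (sr) was under 0.05 unadjusted, against 6.90% of all. The range of 1 member, sr, lay wholly higher there, against 1.13% of all probe sets. At 6 h against 0 h 0.179% of all passed, and 3 of 8 members (hry, cbt and puc) were under 0.05 unadjusted, against 10.6% of all. The ranges of 2 members, hry and cbt, lay wholly lower there, against 2.53% of all probe sets. At 24 h against 6 h 0.0358% of all passed, and 1 of 8 members (cbt) was under 0.05 unadjusted, against 6.75% of all. The range of 1 member, cbt, lay wholly higher there, against 4.93% of all probe sets. Over the whole course, with a moderated F test, 0.344% of all passed and no member did, with hry the nearest (limma adjusted p = 0.0916). hry, cbt and kay were under 0.05 unadjusted there. When run entered the limma fit as a fixed block, 0 members passed in these comparisons except at 6 h against 0 h, where hry did.

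Processing run moved with these results, and its part in the comparison of 6 h with unmated females cannot be told apart from mating, since no run holds both. With run as a fixed block, which links the 2 groups through other groups, the hry difference between 6 h and unmated females was -0.60 on the log2 scale (SE 0.44, adjusted p = 0.689), and with a random block it was -1.71 (adjusted p = 0.142). Without the arrays of run 6 the change was -1.33 (adjusted p = 0.0998). The hry call was also lost without 6 h replicate 1 or 3 or unmated replicate 1, 2, 3 or 4, with changes of -1.33 without 6 h replicate 3 and -1.97 to -2.14 without each of the others, and the call against 3 h was lost without any array of either group except 6 h replicate 2. A fixed run block put the change against 3 h at -1.02 (adjusted p = 0.425).

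The comparison of 6 h with 0 h can be made inside runs, and hry was lower there as well. In run 4 hry was at 334.9 at 6 h, against a geometric mean of 1336 on 2 arrays at 0 h, a log2 difference of -2.0. In run 5 it was at 739.5 at 6 h, against 1251 on 4 arrays at 0 h, a difference of -0.76. Both differences ran the same way and differed in size. With run as a fixed block hry fell by 1.42 on the log2 scale at 6 h against 0 h (SE 0.27, adjusted p = 0.0452), in a fit where 0.43% of all probe sets passed. That call was lost without 6 h replicate 1 or 3 or 0 h replicate 1, 2, 3, 4 or 5, with changes of -1.16 to -1.46 and adjusted p up to 0.234. A random run block gave -1.81 (adjusted p = 0.0520).

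**Figure D2:**
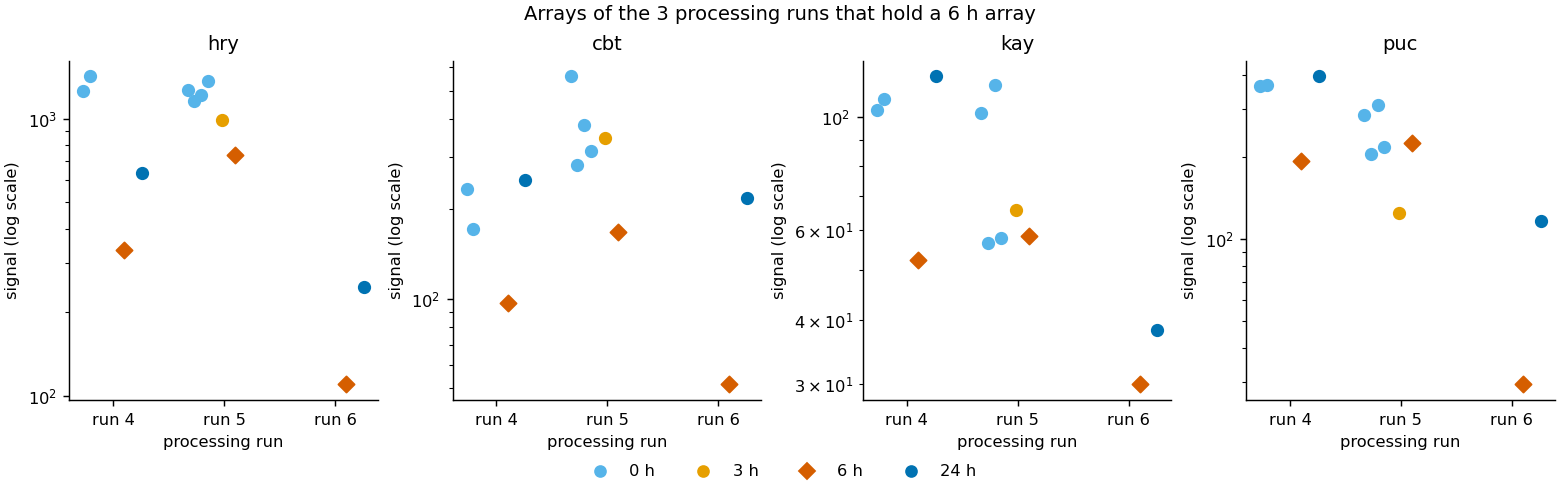
Signal (log axis) of hry, cbt, kay and puc on every array of the 3 processing runs that hold a 6 h array, with 0 h, 3 h, 6 h and 24 h arrays in separate colours and the 6 h arrays as diamonds. The 6 h diamond is the lowest point of its run in all 3 runs for hry and cbt, while kay and puc have lower points in run 5.

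cbt shared the low 6 h level of hry. Its signal was 96.7, 166.8 and 51.4 at 6 h, against 473.2, 162.3, 883.2, 280.3 and 157.6 in unmated females. 6 h replicate 2 lay above the 2 lowest unmated arrays, and the ranges overlapped. The log2 change was -1.74 (SE 0.50, limma adjusted p = 0.0785), which did not pass. With run as a fixed block it was -1.12 (SE 0.79, adjusted p = 0.675). At 3 h cbt had 315.3, 268.7, 346.8 and 270.0, and at 0 h 171.5 to 557.7 with a median of 297.2, all above every 6 h array. The log2 changes were -1.67 against 3 h (adjusted p = 0.179) and -1.68 against 0 h (adjusted p = 0.169). Against 3 h a fixed run block gave -1.315 (SE 0.64, adjusted p = 0.613).

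At 24 h cbt stood at 262.0, 249.8 and 218.2, a narrow band above every 6 h array, as was the case for 4.93% of all probe sets. The log2 change at 24 h against 6 h was 1.37 (SE 0.56, adjusted p = 0.683), with differences of 1.37 in run 4 and 2.09 in run 6. At 6 h against 0 h it differed by -1.05 in run 4 and -1.15 in run 5, and with run as a fixed block by -1.23 (SE 0.47, adjusted p = 0.298). In order of geometric mean cbt ran 6 h, 24 h, 3 h, 0 h and unmated, and the ranges of 6 h and 24 h and of 24 h and 3 h did not overlap, the second of these a difference that was not tested. On the log2 scale its SD was 0.18 at 3 h and 0.14 at 24 h, against 1.06 in unmated females, whose arrays spread widely. Among 8 members, 2 (hry and cbt) had the 6 h array as the lowest of its run in all 3 runs that hold one, against 5.73% of all probe sets, a description chosen after the values were seen.

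kay, the fly Fos gene, was also low at 6 h on its brighter probe set. Its signal was 52.4, 58.4 and 29.9 at 6 h, against 107.0, 146.5, 170.2, 123.8 and 136.5 in unmated females. The ranges did not overlap, and the log2 change was -1.58 (SE 0.48, limma adjusted p = 0.0870), which did not pass. At 0 h it lay between 56.6 and 115.3 with a median of 102, a range that reached down to the 6 h arrays. At 3 h it had 90.4, 81.7, 65.8 and 256.2, with 1 array high, and at 24 h 177.8, 119.9 and 38.3, with the run 6 array low.

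The direction of kay at 6 h against unmated females turned with run as a fixed block, to 0.13 (SE 0.52, adjusted p = 0.967). Within runs, its difference at 6 h from 0 h was -1.01 in run 4 and -0.43 in run 5. In run 3, the 3 h array of kay stood 0.98 above the mean of the 2 unmated arrays on the log2 scale. The second kay probe set had signals of 1.9 to 35 and lay below the median of its array on all 21 arrays. It exceeded the brightest of 8 foreign control probe sets, which match no fly gene, on 2 of 21 arrays, so its log2 change of -0.70 at 6 h (SE 0.85, adjusted p = 0.715) says little about the gene.

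Jra, the fly Jun gene and partner of kay, was steady. Its signal was 148.5 to 219.2 in unmated females, 185.2 to 244.8 at 0 h, 156.4 to 226.5 at 3 h, 165.3 to 201.5 at 6 h and 173.6 to 203.8 at 24 h, and all group ranges overlapped. The log2 change against unmated females was 0.24 at 0 h (95% interval -0.17 to 0.65), 0.045 at 3 h (-0.41 to 0.50), 0.028 at 6 h (-0.47 to 0.52) and 0.039 at 24 h (-0.45 to 0.53). None passed, and in the fit without run the intervals leave out changes of 1 log2 unit in either direction. With run as a fixed block the 0 h change of Jra was 0.313 with an SE of 0.325, against an SE of 0.196 without run. Its SD was at most 0.23 on the log2 scale in any group.

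puc, the JNK phosphatase, had signals of 193.2, 225.8 and 29.3 at 6 h, against 151.0, 234.1, 286.7, 385.9 and 420.8 in unmated females. 6 h replicates 1 and 2 lay inside the unmated range and replicate 3 far below it. The log2 change was -1.35 (SE 0.62, limma adjusted p = 0.260), and -0.41 without 6 h replicate 3 (adjusted p = 0.820). A fixed run block gave -0.15 (adjusted p = 0.965). At 0 h puc lay between 205.3 and 368.1 with a median of 298.9, at 3 h it had 358.0, 425.1, 124.9 and 560.5, and at 24 h 533.6, 396.4 and 117.1. In order of geometric mean it ran 6 h, unmated, 0 h, 24 h and 3 h, with neighbours overlapping. At 6 h against 0 h it differed by -0.93 in run 4 and -0.15 in run 5.

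**Figure D3:**
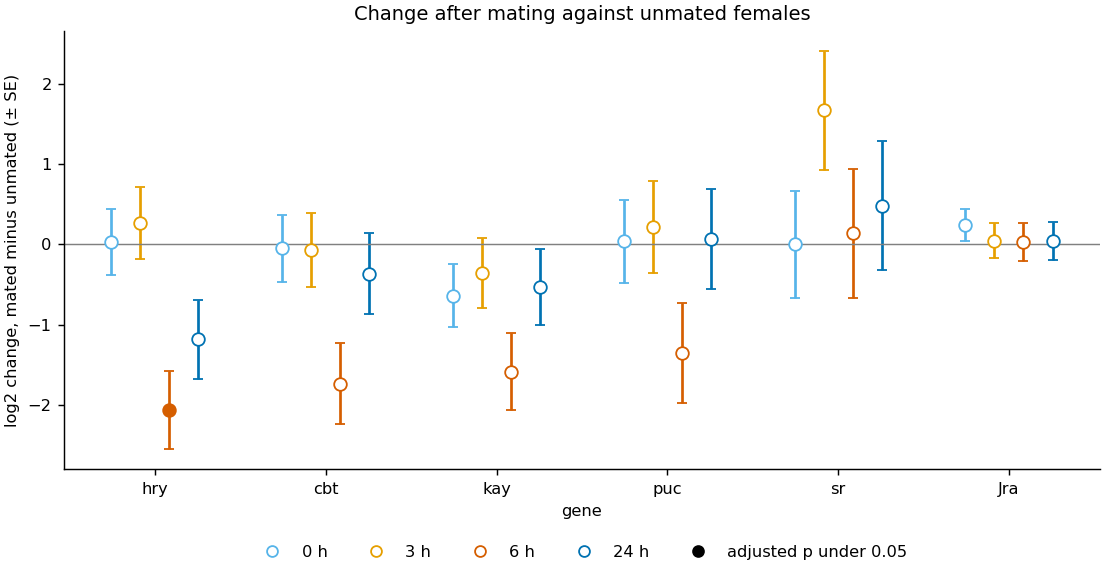
Log2 change of 6 immediate early genes at 0, 3, 6 and 24 h after mating minus unmated females (limma, bars are SE), with filled points where the adjusted p was under 0.05. hry at 6 h (-2.06) is the only filled point, cbt, kay and puc also lie below -1 at 6 h, sr is highest at 3 h (1.67), and Jra stays near 0.

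sr, the Stripe gene, had its highest geometric mean at 3 h. Its signal was 83.3, 100.1, 76.2 and 94.6 at 3 h, against 42.3, 86.2, 44.0, 11.1 and 9.2 in unmated females. Unmated replicate 2 reached into the 3 h range, and the other unmated arrays lay below it. The log2 change at 3 h was 1.67 (SE 0.74, limma adjusted p = 0.623), which did not pass. At 0 h sr lay between 5.2 and 61.9 with a median of 34.9, wholly below the 3 h arrays, as did 1.13% of all probe sets. The log2 change at 3 h against 0 h was 1.67 (SE 0.71, adjusted p = 0.702).

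The 3 h arrays of sr came from runs 2, 3 and 5 and still lay close together, with an SD of 0.18 on the log2 scale against 1.39 in unmated females and 1.30 at 0 h. In run 3 the 3 h array was at 94.6, against 11.1 and 9.2 on the 2 unmated arrays, a log2 difference of 3.23. In run 5 it was at 76.2, against a geometric mean of 40.1 on 4 arrays at 0 h, a difference of 0.93. With run as a fixed block the change at 3 h against unmated females was 2.60 (SE 0.94, adjusted p = 0.396). In that limma fit it was 1.84 at 6 h (SE 1.1, adjusted p = 0.60) and 2.50 at 24 h (SE 0.94, adjusted p = 0.442). A level particular to 3 h is therefore not shown. Within runs, sr at 6 h differed from 0 h by 1.64 in run 4 and 1.06 in run 5. In run 5 its 6 h array was above the 3 h array, and in run 3 its 24 h array stood 1.87 above the unmated mean. At 6 h sr had 41.4, 83.4 and 8.2, spanning nearly the whole range of the other groups, and at 24 h 37.0, 37.2 and 41.9. The 24 h arrays lay wholly below the 3 h arrays, a difference that was not tested. sr is dim, exceeding the brightest foreign control on 15 of 21 arrays, and the size of its differences is uncertain.

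Hr38 could not be followed on this array. Its signal was 2.1 to 33.9 and exceeded the brightest foreign control on 0 of 21 arrays, and it lay below the array median on all of them. The log2 changes against unmated females ran from -0.74 at 6 h to 0.047 at 3 h with SE of 0.64 to 0.78, and none passed (limma adjusted p 0.667 or more).

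Beyond the members, genes of related pathways give the setting of the 6 h values. The cascade upstream of AP-1 was represented by 16 measured genes of the 20 on the JNK list. Of these, 1 fell at 6 h against unmated females, 15 did not pass and 15 had a log2 change below 0. Of all probe sets, 1.17% passed as lower and 60.4% lay below 0 in that comparison. The list median was -0.83. The gene that fell was msn, which encodes the kinase Misshapen at the top of the cascade. Its signal was 3.6 to 22.2 at 6 h, against 33.1 to 133.2 in unmated females, and the log2 change was -3.26 (SE 0.68, adjusted p = 0.0189). Against 3 h it was -3.38 (SE 0.71, adjusted p = 0.0458), and leaving out any single array of these groups, other than 6 h replicate 2, ended that call. At 6 h msn lay below the array medians, so the size is uncertain, and taking log2 of signal plus 16 gave -1.88.

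The other lists each had at most 1 gene past the threshold at 6 h against unmated females, where 1.17% of all probe sets passed as lower. Of 12 measured rapid response transcription factors outside the members, 1 fell, Pdp1 (-2.27, SE 0.56, adjusted p = 0.0386), a leucine zipper activator of the circadian clock. Its signal was 16.8 to 72.6 at 6 h, against 80.2 to 325.0 in unmated females. Of 12 genes of the Hairy and E(spl) family with their corepressors, 1 fell, emc (-2.23, SE 0.54, adjusted p = 0.0368), an inhibitor of basic helix-loop-helix proteins. Its signal was 78.7 to 807.9 at 6 h, against 1191.7 to 1844.9 in unmated females. Of 7 Stripe-dependent tendon genes, 1 fell, shot (-1.80, SE 0.41, adjusted p = 0.0286), a linker of actin and microtubules, with 85.4 to 153.6 at 6 h, against 289.8 to 688.5 in unmated females. In each case the 6 h range lay wholly below the unmated range, as it did for 6.28% of all probe sets.

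Of 10 target genes of AP-1 or JNK known from other fly tissues, of 12 EGFR and ERK signalling genes and of 11 nuclear receptor partners of Hr38, none passed at 6 h against unmated females in limma, with median log2 changes of -0.46, -0.69 and -0.30. The medians of the other lists were -0.94 for rapid response factors, -0.40 for the Hairy family and -0.59 for tendon genes, against -0.21 for all probe sets. At 0 h, 3 h and 24 h against unmated females no gene of these 7 lists passed. None of the calls of msn, Pdp1, emc and shot held with run as a fixed block (-2.08, -1.42, -1.12 and -0.51; adjusted p from 0.367 to 0.830) or without 6 h replicate 3 (-2.68, -1.67, -1.23 and -1.57; adjusted p from 0.113 to 0.235). Other single arrays also ended calls: 6 h replicate 1 for msn, Pdp1 and shot, and unmated replicates 1, 2 and 3 for Pdp1, 1 to 4 for emc and 1 and 3 for shot.

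**Figure D4:**
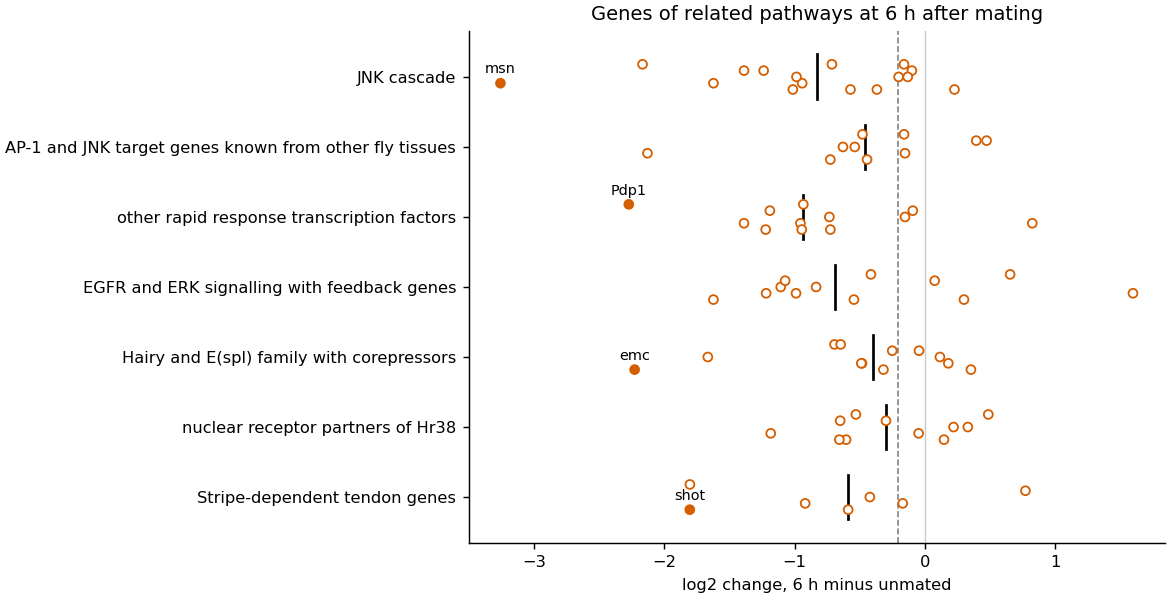
Log2 change at 6 h minus unmated of each measured gene in 7 lists related to the members, with filled points past the adjusted p of 0.05 (limma), black bars at list medians and a dashed line at the median of all probe sets (-0.21). The filled points are msn, Pdp1, emc and shot, all to the left of -1.

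Some markers of other cell types differed at 6 h too, and their part in these results was not tested. The marker calls given here are from the fit without run and were not examined with a run block. At 6 h against unmated females, 1.84% of all probe sets passed in either direction and 60.4% lay below 0. Of 8 germline and oocyte markers 2 rose at 6 h (swa and pgc) and none lay below 0, and their summed signal was 491.8 to 2113 at 6 h, against 185.4 to 373.7 in unmated females. Of 6 neuronal markers 3 fell (elav, Syn and nSyb), with a summed signal of 32.9 to 123.3 at 6 h, against 138.8 to 190.4 in unmated females. These 3 were dim, with geometric means of 26.7, 19.4 and 25.5 in unmated females and 2.6, 1.5 and 4.8 at 6 h. The brightest foreign control reached 23.4 to 51 on the unmated arrays, so these falls say little about neuronal content. Of 6 hemocyte markers all 6 had log2 changes below 0 and none passed, with a summed signal of 858.5 to 1353 at 6 h, against 1315 to 2644 in unmated females. Of 4 muscle markers none passed, and the sums overlapped. None of the measured follicle, fat body, male accessory gland and ejaculatory duct, or sperm and testis markers passed at 6 h against unmated females. Of 6 heat shock and handling genes 2 rose at 6 h, Hsp26 (log2 change 5.30, SE 1.08) and Hsp27 (2.03, SE 0.46), while 3 lay below 0. The summed signal of the 6 was 4048 to 6337 at 6 h, against 3823 to 7871 in unmated females. RNA integrity, read as the log2 ratio of 3' over 5' signal for control genes, averaged 2.82 ± 0.73 (SD, n = 3) at 6 h and 3.90 ± 2.01 (n = 5) in unmated females, and with that ratio as a covariate the change of hry at 6 h was -1.95 (adjusted p = 0.0426).

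Among themselves, hry, cbt, kay and puc had positive correlations over the 21 arrays in every pair. These 4 were picked for low geometric means at 6 h on these same arrays, which itself favours a positive r. Hr38, near background, was also lowest at 6 h. Its r was 0.21 with hry, 0.42 with cbt, -0.19 with kay and -0.22 with puc. Among the 4, Pearson's r of log2 signal was 0.79 between kay and puc, 0.73 between hry and puc, 0.71 between hry and cbt, 0.66 between hry and kay, 0.48 between kay and cbt and 0.43 between puc and cbt. Runs were inferred from array numbers, and no label says what the arrays of 1 run share. With run means removed these r values were 0.68, 0.59, 0.62, 0.53, 0.52 and 0.57. kay and Jra, the partners in AP-1, had r of -0.36, or 0.072 with run means removed. These values are descriptions over arrays that share runs and groups.

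Genes outside the members were ranked by the same r over all 21 arrays. Among 5905 other genes with a mean signal above the median, those most like hry were shn, a zinc finger factor of Dpp signalling (r = 0.92, 0.69 with run means removed), and scrib, a cell polarity gene (0.90 and 0.75). For cbt they were Aps (0.87 and 0.80) and Ip6k (0.83 and 0.73), enzymes of inositol pyrophosphate turnover. For kay they were Ca-alpha1D, a calcium channel subunit (0.90 and 0.64), and bt, a giant muscle protein (0.89 and 0.62). For puc they were CG30015 (0.94 and 0.80) and the kinase gene JIL-1 (0.94 and 0.77). For sr, among 5906 genes, they were Atg1, the autophagy kinase (0.75 and 0.66), and Clic, an intracellular channel protein (0.75 and 0.61). For Jra the nearest were CG13559 (0.74 and 0.89) and CG30427 (0.69 and 0.55), and for Hr38, which was near background, Cpr64Ad (0.76 and 0.59) and CG14329 (0.73 and 0.50).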

How the data were processed

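RNA from pooled lower reproductive tracts was hybridised to 21 single-colour oligonucleotide arrays. Each deposited value is an intensity per probe set on a linear scale, called signal here. The submitters' processing notes name RMA with no version, but the deposited intensity is not on a log scale and its quartiles differ between arrays, so how the authors summarised probes is not settled. log2 of signal was taken with no pseudocount or further scaling. The table holds 14010 probe sets, and 44 controls were left out. Symbols came from the platform annotation, updated through RefSeq (assembly Release 6 plus ISO1 MT, 12394 probe sets), used for names only. No promoter, protein or target sequence is shown and the planned motif search was not run, as no sequence of these genes was used here.

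limma 3.58.1 in R 4.3.3 fitted 1 mean per group over all 21 arrays, with moderated variances. Tests were 2-sided, and p-values were adjusted by Benjamini-Hochberg over 13966 probe sets in each comparison, with a threshold of 0.05. P-values measure the spread between pools and take arrays as independent, although the correlation within run was 0.311. The number of arrays limits precision. The steps were tested on simulated data.

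Named genes were all members, the list genes past the threshold (a gene being its brightest probe set), and for each member the 2 genes with the highest r over 21 arrays. The members, lists and tests were chosen with earlier results of these data known. Alternatives were quantile normalization, median centring, log2 of signal plus 16, a fit of the compared groups alone, leaving out the dimmer probe sets, a fixed or random run block, a covariate for the 3' to 5' ratio, array weights, variance trend with robust moderation, no run 6, and leaving out each array. Fits added after seeing the data applied these to single further values, or combined 1 of them with the run block.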

Additional observations from a re-analysis of the deposited data

How the results depend on the processing

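Arrays were not paired by replicate number, since these numbers follow accession order, and were matched only by processing run. The count of members passing at 6 h against unmated females (1) was 3 without the dimmer probe sets (hry, kay and cbt), 2 with the 3' to 5' covariate or the variance trend, and 0 with the compared groups alone, a fixed or random run block, or no run 6, and 0 to 2 leaving out each array. At 6 h against 3 h (1) it was 0 with the compared groups alone, either block, the covariate or no run 6, and 0 to 1 leaving out each array. At 6 h against 0 h (0) it was 1 with signal plus 16, without dim probe sets, with the fixed block or the variance trend, and 0 to 1 leaving out each array. Over the course (0) it was 1 with signal plus 16, without dim probe sets, with array weights or the variance trend, and 0 to 1 leaving out each array. The probe sets passing at 6 h against unmated females were 257, or 5 with run as a fixed block and 65 as a random block. Against 0 h they were 25, or 60 and 79. Of 746 values of single genes under alternatives, 590 kept direction and side of the threshold, 75 lost and 10 gained the call, and 71 turned sign. Only results that had passed could lose a call, and most of these single gene results had not passed. The 590 are therefore no measure of how firm the calls were.

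The sign turned as follows, for values not past the threshold, and the cause was not tested. With run as a fixed block kay was 0.80, 0.76, 0.13 and 0.67 at 0, 3, 6 and 24 h against unmated females, cbt 0.11 at 0 h, 0.20 at 3 h and 0.48 at 24 h, hry 0.15 at 24 h and Hr38 -0.27 at 3 h. As a random block sr was -0.020 at 0 h and Hr38 -0.085 at 3 h. Quantile normalization gave hry -0.047 at 0 h, and median centring gave cbt 0.14 at 0 h and 0.14 at 3 h. With signal plus 16 sr was -0.0075 at 0 h. The covariate gave sr -0.14 at 0 h and -0.10 at 6 h, and Jra -0.042 at 6 h. Array weights gave hry -0.11 and sr -0.0097 at 0 h, Hr38 -0.16 at 3 h, and Jra -0.11 at 6 h and -0.085 at 24 h. Without run 6 Jra was -0.036 at 6 h and -0.028 at 24 h, and kay 0.11 at 24 h. Leaving out each array, the 0 h values ran from -0.30 to 0.32 for cbt, -0.40 to 0.028 for Hr38, -0.094 to 0.12 for hry, -0.18 to 0.19 for puc and -0.40 to 0.48 for sr. At 3 h they ran from -0.32 to 0.31 for cbt, -0.41 to 0.59 for Hr38, -0.048 to 0.13 for Jra and -0.056 to 0.67 for puc. At 6 h they ran from -1.52 to 0.019 for Hr38, -0.044 to 0.11 for Jra and -0.59 to 1.08 for sr. At 24 h they ran from -0.61 to 0.0076 for cbt, -1.30 to 0.57 for Hr38, -0.033 to 0.11 for Jra, -1.0 to 0.11 for kay and -0.37 to 0.73 for puc.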
